A study of Mus musculus and Rattus norvegicus with 30 samples.

Results

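The 10 genes described here encode receptors that mark itch and nonpeptidergic pain neurons in the dorsal root ganglion (DRG). They were chosen by symbol: Mrgprd, Mrgpra3, Mrgprb4, Mrgprb5, Mrgprx1, Lpar3, Htr1f, Cysltr2, Il31ra and Osmr. All 10 were found among the 54315 features of the mouse count table (28946 distinct symbols; 12422 features at 0 in every library), all 10 had counts, and all 10 passed the filter on low counts. In the rat table of 39281 features (17036 at 0 in every library), 9 of the 10 symbols were present, with none for Mrgpra3. Of those 9, 7 had counts and passed the filter, while Htr1f and Cysltr2 were listed at 0 in all 8 rat libraries.

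Nonpeptidergic C-fibre neurons end in the outer skin and are told apart by the Mas-related G protein-coupled receptors (Mrgpr) they carry. Mrgprd, the receptor for beta-alanine, marks the most numerous class of these neurons, where Lpar3, a receptor for lysophosphatidic acid, is also found. Mrgpra3, the chloroquine receptor, and Mrgprx1, a receptor for pruritic peptides, mark a class tied to itch, and Mrgprb4 marks fibres that respond to gentle stroking. A further itch class carries Il31ra and Osmr, which together form the receptor for interleukin-31, along with the serotonin receptor Htr1f and the leukotriene receptor Cysltr2.

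RNA was sequenced from 20 mouse and 8 rat libraries. BALB/c and B10.D2 mice of both sexes had either a spared nerve injury (SNI), which severs all main sciatic branches but the tibial, or sham surgery, which opened the site without harming the nerve. Each mouse library held the pooled L3 and L4 DRG of 1 animal at day 28. There were 6 BALB/c sham libraries (3 female, 3 male), 4 BALB/c SNI libraries (2 and 2), 5 B10.D2 sham libraries (2 and 3) and 5 B10.D2 SNI libraries (3 and 2). Male Wistar rats had the L5 spinal nerve ligated and cut (SNT) or a sham operation, and each of 4 SNT and 4 sham libraries pooled the L5 DRG of 3 animals at day 21. Another 2 mouse libraries named in the labels were not analysed here. No group carried a transgene or a drug treatment per the labels, and age beyond adult was not given for the operated animals.

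Totals ran from 29989963 to 41881331 counts in mouse and from 11954612 to 17887909 in rat. Levels are given as CPM, the counts scaled to the library total corrected by TMM factors, which were between 0.931 and 1.04. A floor of 3 counts stood at 0.0716 to 0.10 CPM in mouse and 0.168 to 0.251 CPM in rat. A gene is called where its adjusted p was under 0.05 over all features tested (edgeR quasi-likelihood test, Benjamini-Hochberg). Of 10 injury genes listed for context, 10 rose after SNI in each mouse strain, the median log2 fold change being 2.52 (BALB/c) and 1.52 (B10.D2). Of all features, 9.69% (BALB/c) and 4.58% (B10.D2) were called in either direction. The injury genes were listed with earlier results of these data known, so their values in mouse and rat are a description and no test. Pan-neuronal genes were abundant in every mouse library, with a summed level of 6780 to 8145 CPM over 11 genes. In rat the table lists 4 of those 11 at 0 (Rbfox3, Uchl1, Tubb3 and Pou4f1), although neurons carry them, so a rat gene at 0 is given only as listed at 0. On the first principal component of the rat libraries (68.1% of the variance), 1 sham library (-10.2) and 1 SNT library (0.789) stood in the middle, with the remaining shams at -61.5 to -47.8 and the remaining SNT libraries at 41.7 to 65.3. They are called the intermediate sham and the intermediate SNT library here. The summed injury genes were 429 CPM in the intermediate sham against 133 to 155 CPM in the other shams, and 593 CPM in the intermediate SNT library against 650 to 911 CPM in the other SNT libraries. Rat changes are therefore given with and without these 2 libraries. Since both were picked on the axis that parts sham from SNT, leaving them out widens the differences by construction, and those values are a description with no test.

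In the mouse genome (mm10) the 4 genes Mrgpra3 (chr7:47588950-47601372), Mrgprx1 (chr7:48020971-48027597), Mrgprb5 (chr7:48167983-48169019) and Mrgprb4 (chr7:48198070-48199288) lay in a row on the minus strand of chromosome 7. Mrgprd (chr7:145314835-145324086, plus strand) lay far along the same chromosome. Among the coding sequences of these 5 genes, Mrgprb4 and Mrgprb5 were identical at 84.5% of aligned bases, and the other pairs at 56.3% to 66.6%. No stretch of 100 bases, the read length, in the annotated transcripts of the 10 genes was shared with a transcript of another gene (0 windows for each). The genes outside the family were Lpar3 (chr3:146220963-146286186, plus strand), Il31ra (chr13:112519898-112594360, minus strand), Cysltr2 (chr14:73025603-73049114, minus strand), Osmr (chr15:6813577-6874969, minus strand) and Htr1f (chr16:64924729-65105854, minus strand).

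The bases just before the start of 3 genes are shown because these carried the strain and injury differences: Mrgprd and Mrgprb4 had the lowest and the highest strain difference among the 10, and Mrgprx1 was the member called after SNI. They are the reference sequence of RefSeq (GRCm38.p6), read 5′ to 3′ along the gene's strand, and not the sequence of the strains studied. The Mrgprd window is chr7:145314585-145314834 (plus strand, 51.2% GC). The Mrgprb4 window is chr7:48199289-48199428 (minus strand, 36.4% GC), printed without the 110 bases that the GENCODE gene covers. The Mrgprx1 window is chr7:48027598-48027847 (minus strand, 43.6% GC). Capitals mark a TATAAA match.
Mrgprd: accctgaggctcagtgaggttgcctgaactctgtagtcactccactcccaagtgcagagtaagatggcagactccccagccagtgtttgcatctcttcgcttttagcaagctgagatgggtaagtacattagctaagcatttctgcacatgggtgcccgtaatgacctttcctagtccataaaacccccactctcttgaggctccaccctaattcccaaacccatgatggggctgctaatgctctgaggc
Mrgprb4: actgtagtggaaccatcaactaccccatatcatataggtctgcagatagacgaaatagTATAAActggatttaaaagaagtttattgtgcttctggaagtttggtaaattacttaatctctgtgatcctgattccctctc
Mrgprx1: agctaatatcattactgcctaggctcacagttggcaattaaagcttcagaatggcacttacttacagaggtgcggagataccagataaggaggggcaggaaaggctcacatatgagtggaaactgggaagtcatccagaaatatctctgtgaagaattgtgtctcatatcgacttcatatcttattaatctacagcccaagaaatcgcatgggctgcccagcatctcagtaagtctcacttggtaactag

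Promoter windows of 250 bases were given by RefSeq for 9 of the 10 genes, with none for Mrgpra3. The letters TGTGGT, the core bound by RUNX factors, were searched on both strands. They stood in 14.0% of 32536 promoters and in 0 of the 9. The AP-1 letters TGANTCA stood in 6.73% of promoters and in 0 of the 9. TATAAA stood in 12.3% of promoters and in 1 of the 9, that of Mrgprb4, on the gene's strand 82 bases before the GENCODE start and 192 before the RefSeq start. It overlapped no other motif searched. These matches describe letters in a short window.

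Levels were compared between genes only per kilobase of exon, in mouse. In BALB/c sham libraries Mrgprd stood highest at 81.8 ± 6.03 CPM per kb (SD, n = 6), followed by Mrgprb5 at 21.9 ± 2.90, Lpar3 at 18.2 ± 2.29, Mrgpra3 at 12.2 ± 1.52 and Mrgprx1 at 11.9 ± 1.05. Below them came Mrgprb4 at 8.60 ± 0.994, Il31ra at 7.12 ± 1.30, Osmr at 6.13 ± 0.519, Htr1f at 5.22 ± 0.591 and Cysltr2 at 3.19 ± 0.454 CPM per kb. Libraries of the neighbours Mrgprb5 and Lpar3, Mrgpra3 and Mrgprx1, Mrgprb4 and Il31ra, Il31ra and Osmr, and Osmr and Htr1f overlapped. Mrgprd stood clear of Mrgprb5, Lpar3 of Mrgpra3, Mrgprx1 of Mrgprb4 and Htr1f of Cysltr2. In B10.D2 sham libraries the order began Mrgprd at 51.1 ± 3.79 (SD, n = 5), Mrgprb5 at 28.1 ± 1.93, Lpar3 at 18.3 ± 1.99 and Mrgprb4 at 15.9 ± 2.72 CPM per kb, so that Mrgprb4 moved from place 6 to place 4. Mrgprd remained first and Cysltr2 last in all 4 mouse groups.

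**Figure D1:**
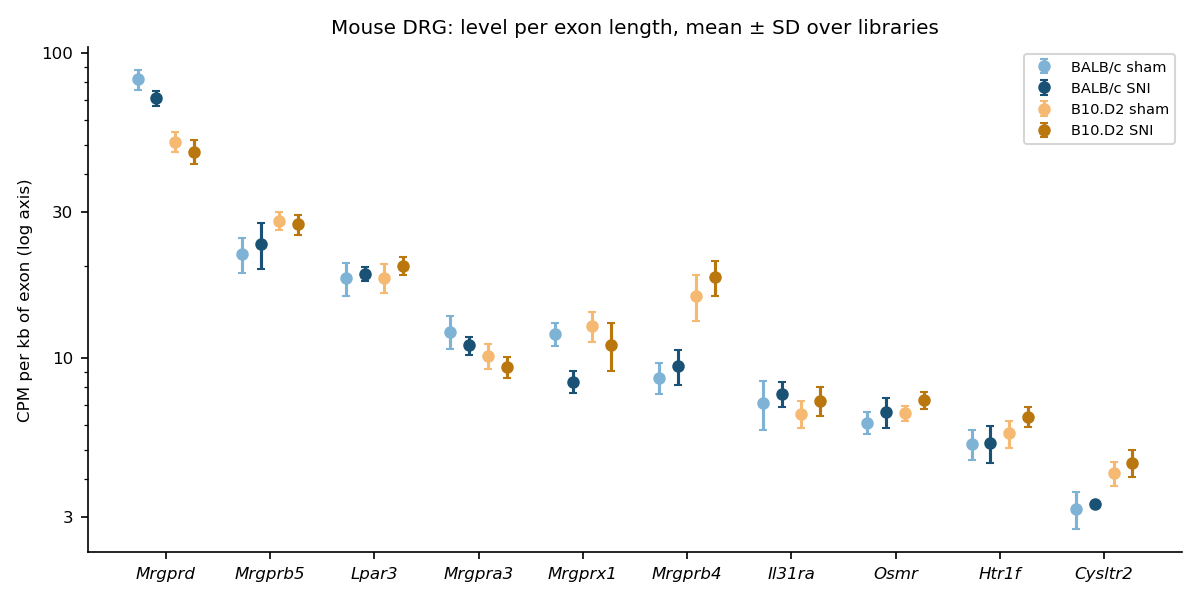
Level of each receptor per kilobase of exon in the 4 mouse groups, on a log axis, as the mean with SD over 4 to 6 libraries. Mrgprd stood highest in every group, at 81.8 CPM per kb in BALB/c sham and 51.1 in B10.D2 sham, and Cysltr2 lowest.

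The first question was which of these receptors change after partial injury of the sciatic nerve in BALB/c mice. Of the 10, 1 fell (Mrgprx1) and none rose, against 9.69% of all 24685 features called in either direction and 4.87% called lower. The median log2 fold change was 0.05 over the 10 genes and 0.0033 over all features. Mrgprx1 read 12.6 (lowest), 14.3 (median) and 15.8 CPM (highest) in the 6 sham libraries and 8.95, 9.41, 10.5 and 10.6 CPM in the 4 SNI libraries. Every SNI library lay below every sham library. The log2 fold change was -0.51 (SE 0.11, edgeR adjusted p = 0.00458), with a 95% interval of -0.74 to -0.28, so that SNI ganglia held 0.702 times the sham level. In a bulk ganglion, fewer cells of a type and less RNA per cell cannot be told apart.

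Mrgprd read 231.5, 253 and 281 CPM (lowest, median, highest) in BALB/c sham libraries and 210, 218, 224 and 240 CPM in SNI libraries. The groups overlapped at their edges. The log2 fold change was -0.21 (SE 0.07, interval -0.35 to -0.07), and its edgeR adjusted p of 0.051 missed the threshold. That value stood near the line: 5 of 9 other processing settings, and 8 of the 20 fits that left out 1 library, put it under 0.05. Mrgpra3, which marks itch neurons together with Mrgprx1, went from 15.8 ± 1.97 (SD, n = 6) to 14.2 ± 0.982 CPM (SD, n = 4), and its change of -0.15 was not called (SE 0.09, edgeR adjusted p = 0.363). The remaining 7 genes had log2 fold changes between 0.0083 (Htr1f) and 0.13 (Mrgprb4) and none was called. Their intervals reached at most 0.38, that of Mrgprb4. For the interleukin-31 receptor pair, Il31ra was at 40.4 ± 7.37 CPM in sham and 43.2 ± 4.10 in SNI libraries, and Osmr at 74.2 ± 6.28 and 80.3 ± 9.08 CPM.

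After SNI in B10.D2 mice none of the 10 genes was called (edgeR), where 4.58% of all features were, and 0 had an unadjusted p under 0.05. DESeq2 also called 0 of the 10, with 0 unadjusted. The log2 fold changes ran from -0.19 (Mrgprx1) to 0.20 (Mrgprb4), with a median of 0.10, against 0.0076 over all features, and all intervals lay within -0.41 to 0.44. Mrgprx1 read 12.9, 13.4, 15.9, 16.2 and 16.3 CPM in the 5 B10.D2 sham libraries and 9.85, 11.4, 13.4, 14.7 and 15.6 CPM in the 5 SNI libraries. These groups overlapped, and the change was -0.19 (SE 0.11, edgeR adjusted p = 0.396). Mrgprd stood at 160 ± 11.9 CPM in sham and 149 ± 13.5 CPM in SNI libraries (log2 fold change -0.09, SE 0.07). Set against BALB/c, the change of Mrgprx1 was 0.32 higher in B10.D2 (SE 0.15), with an edgeR unadjusted p of 0.0493 and an adjusted p of 1. None of the 10 genes was called in this strain by injury interaction (0.0243% of features were), nor under DESeq2, and each tool gave 1 unadjusted p under 0.05. A difference of the Mrgprx1 change between the strains was therefore not shown.

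**Figure D2:**
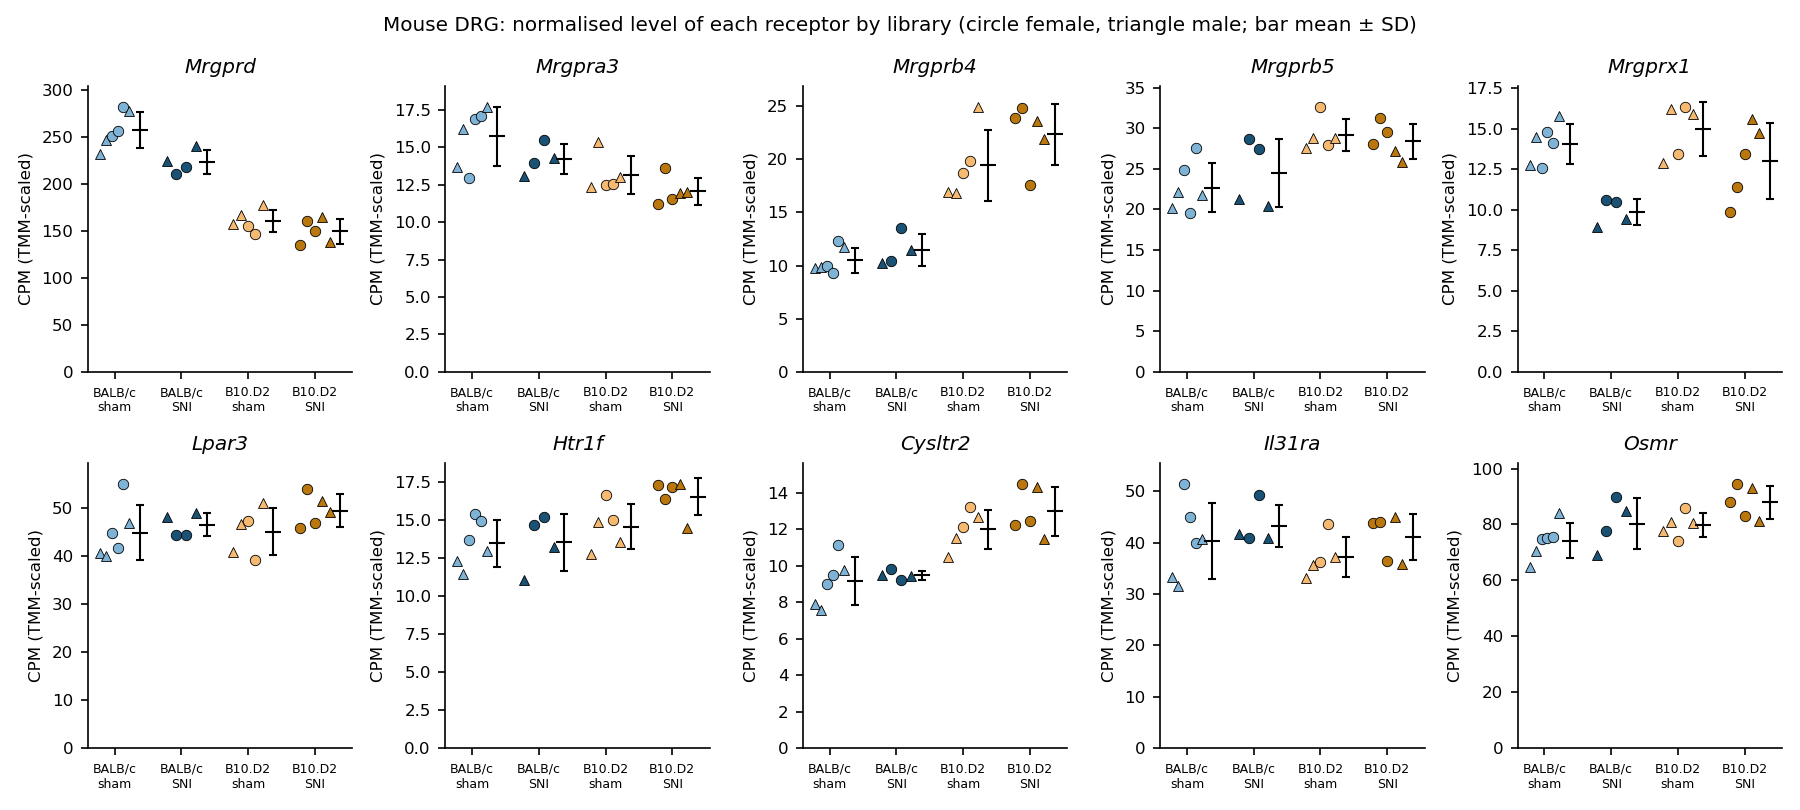
Level of each receptor in every mouse library in CPM, circles female and triangles male, with the mean and SD of each group beside the points. Mrgprx1 is lower in all 4 BALB/c SNI libraries (8.95 to 10.6 CPM) than in any BALB/c sham library (12.6 to 15.8 CPM), and the strains separate for Mrgprd and Mrgprb4.

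Other genes of the same and of neighbouring neurons were read in the same fits. Of 12 other nonpeptidergic neuron genes, 1 rose in each strain and none fell. It was Gfra1, a GDNF co-receptor, by 0.41 on the log2 scale in BALB/c and 0.45 in B10.D2 (named after its values were seen). Scn11a, the sodium channel of nonpeptidergic nociceptors, had log2 fold changes of -0.06 and 0.03, and the ATP receptor subunit P2rx3 -0.02 and -0.03, none of them called. Of 11 other tested Mrgpr genes 1 rose in each strain, Mrgprf, an orphan member of the family, by 0.63 in BALB/c and 0.54 in B10.D2 (edgeR adjusted p = 0.0016 and 0.0106). Its level went from 2.83 to 4.46 CPM in BALB/c sham libraries to 5.06 to 6.47 CPM in SNI libraries. Of 8 genes of large-diameter neurons, 5 fell in BALB/c and 4 in B10.D2, among them the neurofilament Nefh at -0.70 and -0.50. Of 11 pan-neuronal genes 1 fell in each strain, the vesicle release gene Snap25 at -0.51 and -0.43 (named after its values were seen).

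Further lists held itch ligands, cytokine receptor and signalling genes, and other itch and lipid receptors. Of 11 tested ligand and ligand enzyme genes 1 rose in each strain, the neuropeptide Nts, which acts on neurotensin receptors, by 3.01 in BALB/c and 2.77 in B10.D2. Of 16 cytokine receptor and signalling genes, 2 rose in BALB/c and 1 in B10.D2, with none lower. Il13ra1, which pairs with Il4ra in a cytokine receptor separate from that of interleukin-31, rose by 0.76 in BALB/c and 0.45 in B10.D2. Il4ra rose by 0.70 in BALB/c and had an uncalled value of 0.08 in B10.D2. Of 20 other itch and lipid receptors 2 rose and 2 fell in BALB/c, and 1 rose and 3 fell in B10.D2. The serotonin receptor Htr7 fell in both, by 0.46 and 0.34 on the log2 scale, and Htr1d fell by 0.34 in B10.D2 with an uncalled -0.0079 in BALB/c. Macrophage markers moved with injury in BALB/c, where 3 of 7 rose and the summed level went from 59.6 to 148 CPM in sham to 110 to 169 CPM in SNI libraries, with none at 0. Their part in the results was not tested.

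The strains were next compared without injury. Of the 10 genes, 5 differed between B10.D2 and BALB/c sham ganglia, where 21.6% of all features did. Mrgprb4, Mrgprb5 and Cysltr2 were higher in B10.D2, and Mrgprd and Mrgpra3 lower. For 3 of the 10 the libraries of the strains did not overlap (13.3% of features). The median log2 difference was 0.10 over the 10 genes and -0.0063 over all features.

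Mrgprd had the lowest strain value of the 10. Its 6 BALB/c sham libraries read 231.5, 253 and 281 CPM (lowest, median, highest) and the 5 B10.D2 sham libraries 146, 155, 157, 167 and 178 CPM. Every B10.D2 library lay below every BALB/c library. The level was 1.61-fold lower in B10.D2, a log2 difference of -0.69 (SE 0.06, interval -0.82 to -0.56, edgeR adjusted p = 3.23e-08). The separation was also there after SNI, at 134 to 165 CPM in B10.D2 and 210 to 240 CPM in BALB/c. Mrgpra3 was lower in B10.D2 too, at 13.2 ± 1.25 CPM (SD, n = 5) against 15.8 ± 1.97 CPM (SD, n = 6). Its groups overlapped, the log2 difference was -0.26 (SE 0.09, edgeR adjusted p = 0.0329), and the call was lost in 8 of 20 fits that left out 1 library, where the adjusted p reached 0.0861.

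The neighbouring genes Mrgprb4 and Mrgprb5 were higher in B10.D2. Mrgprb4 read 9.34, 9.90 and 12.3 CPM (lowest, median, highest) in BALB/c sham libraries and 16.8, 16.9, 18.7, 19.9 and 24.9 CPM in B10.D2 sham libraries. The groups lay well apart, with a log2 difference of 0.89 (SE 0.11, interval 0.66 to 1.13, edgeR adjusted p = 3.22e-06), or 1.86-fold. After SNI the libraries were again apart, at 17.6 to 24.8 CPM in B10.D2 and 10.3 to 13.5 CPM in BALB/c. Mrgprb5 read 19.6, 21.99 and 27.5 CPM in BALB/c and 27.6, 27.99, 28.8, 28.8 and 32.6 CPM in B10.D2. Its groups nearly touched, at 27.52 against 27.57 CPM, and the log2 difference was 0.39 (SE 0.07, edgeR adjusted p = 0.000487). After SNI the Mrgprb5 libraries of the strains overlapped, at 25.8 to 31.3 CPM in B10.D2 and 20.5 to 28.7 CPM in BALB/c.

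An assembled transcript of the study, LncRNA1384 (chr7:48117590-48215151, plus strand, 7 exons), spans Mrgprb5 and Mrgprb4 on the opposite strand and shared 0 exonic bases with either. It was higher in B10.D2 sham ganglia as well, with 65 to 115 counts (1.77 to 3.47 CPM) against 34 to 62 counts (0.948 to 1.77 CPM) in BALB/c. The log2 difference was 1.03 (edgeR adjusted p = 8.25e-05). Whether the counting used strand was not given in the sources used here, so reads of the genes and of this transcript may not be told apart. LncRNA1485 spans Mrgpra3 on the same strand, shared 0 exonic bases with it and held 16 to 50 counts in sham libraries, with no call between the strains. Mrgprx1, in the same gene row, differed by 0.08 (SE 0.10, interval -0.13 to 0.29), which was not called.

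Among the receptors outside the Mrgpr family, Cysltr2 was higher in B10.D2. It read 7.57, 9.27 and 11.1 CPM (lowest, median, highest) in BALB/c and 10.5, 11.6, 12.1, 12.7 and 13.2 CPM in B10.D2 sham libraries. The groups overlapped at 1 B10.D2 library, with a log2 difference of 0.41 (SE 0.09, edgeR adjusted p = 0.00145). Htr1f (0.14, interval -0.0043 to 0.28), Osmr (0.11, interval -0.03 to 0.25), Lpar3 (0.0035, interval -0.16 to 0.17) and Il31ra (-0.09, interval -0.28 to 0.10) were not called. Lpar3 thus stood at 44.9 ± 5.65 CPM in BALB/c and 45.0 ± 4.89 CPM in B10.D2, while Mrgprd, found in the same neurons, differed by the amount given above.

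Of the separate list of 12 other nonpeptidergic neuron genes, 5 were higher in B10.D2 sham ganglia and none lower (median 0.18). They were Prkcq at 0.62, Gfra2 at 0.54, Grik1 at 0.35, Gfra1 at 0.32 and Acpp at 0.24 (all but Acpp named after their values were seen). Of 5 genes of low-threshold C fibres and cooling neurons 3 were higher: the vesicular glutamate transporter Slc17a8 by 2.02, tyrosine hydroxylase Th by 1.0 and Fam19a4 by 0.57. Of 11 pan-neuronal genes 2 were higher, Isl1 by 0.47 and Uchl1 by 0.15 (the latter named after its value was seen), and of 11 other tested Mrgpr genes 0 differed. The interleukin-4 receptor Il4ra was higher by 1.44 (edgeR adjusted p = 5.05e-11). Of 8 large-diameter neuron genes 2 were lower and none higher. Markers of other cells moved both ways with strain. All 4 T cell markers were higher, with summed levels of 0.652 to 1.403 CPM in BALB/c and 1.61 to 2.99 CPM in B10.D2. In BALB/c sham libraries Cd3e (0 to 0.179 CPM) and Cd8a (0.0501 to 0.149 CPM) stood near the floor. Of 7 macrophage markers 3 were higher, and of 5 fibroblast and perineurium markers 2 were higher and 1 lower. Lower were 2 of 5 endothelium and mural markers and 1 of 6 satellite glia markers. The part of these cells in the strain differences was not tested.

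**Figure D3:**
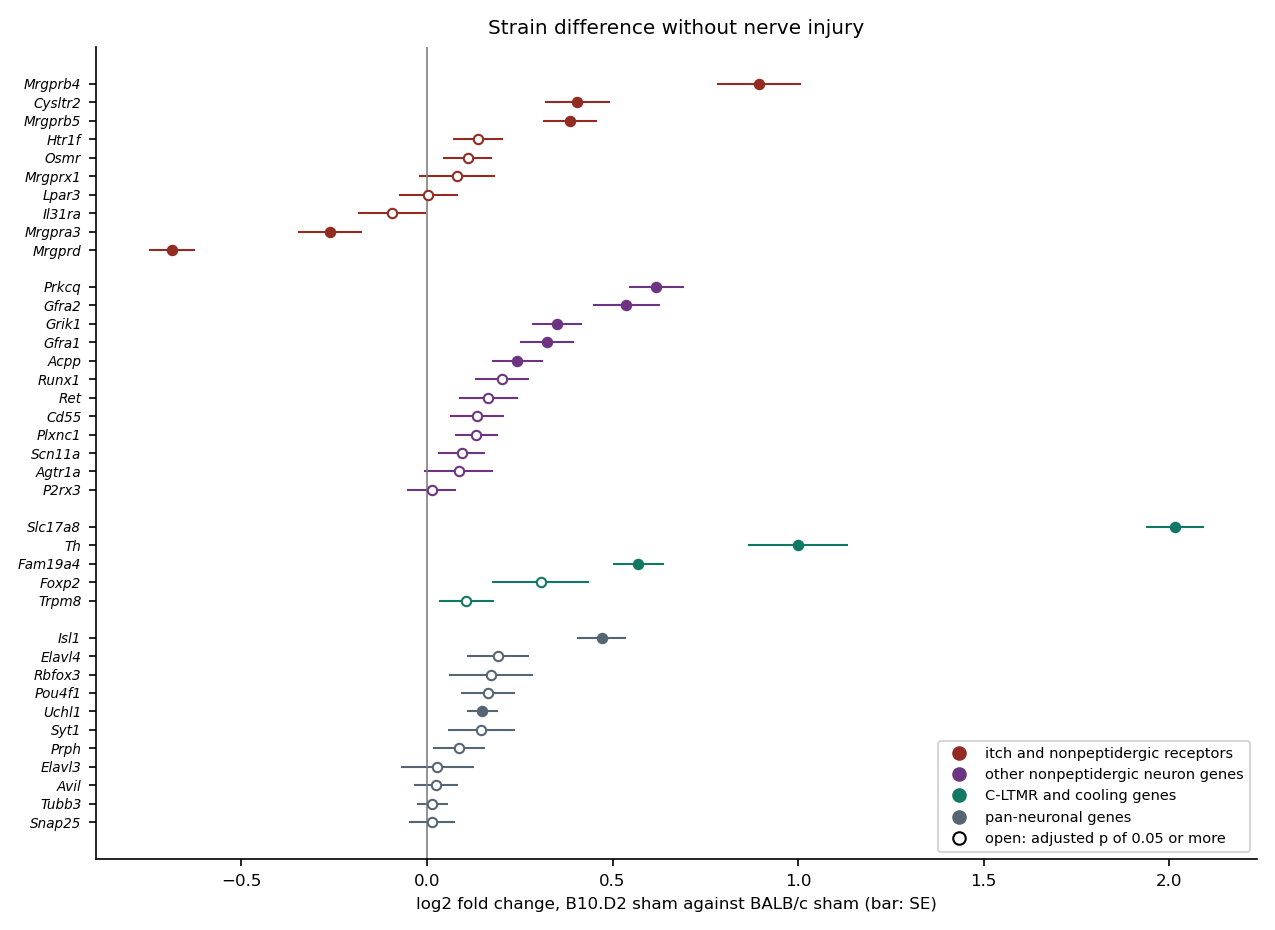
Log2 difference of B10.D2 sham from BALB/c sham ganglia for the 10 receptors and 3 lists of neuronal genes, with SE bars and filled points where the adjusted p was under 0.05. Mrgprd lies at -0.69 and Mrgprb4 at 0.89, while 5 of 12 other nonpeptidergic genes and 3 of 5 low-threshold C fibre and cooling genes were higher and none lower.

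Sex was a term of the mouse model. None of the 10 genes was called between males and females (edgeR), where 0.243% of features were. An unadjusted edgeR p under 0.05 was seen for 3 of the 10 and for 2899 of all 24685 features. DESeq2 called 2 of the 10 and 240 of 22678 features. Htr1f stood at 15.6 ± 1.17 CPM in 10 females and 13.4 ± 1.83 CPM in 10 males. Its log2 difference was -0.21 in males (SE 0.05, edgeR adjusted p = 0.0775). Mrgprb5 had -0.20 (SE 0.06, adjusted p = 0.140) and Il31ra -0.19 (SE 0.07, adjusted p = 0.251), both with the lower mean in males.

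In rat, the question was how the receptors change after complete transection of the L5 spinal nerve. Of the 7 genes tested, 5 were called, 4 lower and 1 higher, where 27.4% of 13690 features were called, 15.1% lower and 12.3% higher. For 4 of the 7 the SNT and sham libraries did not overlap (26.5% of features). The median log2 fold change was -1.94 over the 7 genes and 0.0027 over all features. Without the 2 intermediate libraries, a choice that raises the number of calls, the same 5 passed the threshold, where 43.9% of features did.

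Mrgprd read 14.4, 15.1 (intermediate), 19.0 and 28.8 CPM in sham libraries and 8.47 (intermediate), 0.381, 0.131 and 0.0556 CPM in SNT libraries. All SNT libraries lay below all sham libraries, and the intermediate library stood far above the other 3, which together held 10 counts. The log2 fold change was -3.12 (SE 1.003, edgeR adjusted p = 0.0435), or 8.68-fold lower. Without the 2 libraries it was -6.69 (SE 0.46), from a mean of 20.7 to 0.189 CPM, a value at about the floor of 3 counts per library. How large the loss was thus hung on the intermediate SNT library.

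Mrgprb4 read 48.5, 39.2, 37.3 and 16.7 CPM (intermediate) in sham libraries and 10.3 (intermediate), 0.163, 0.167 and 0.524 CPM in SNT libraries. The groups did not overlap, and the intermediate sham was the lowest sham. The log2 fold change was -3.69 (SE 1.002, edgeR adjusted p = 0.0251), or 12.9-fold lower. Without the 2 libraries it was -7.21 (SE 0.30), with 14 counts in the 3 SNT libraries left. Mrgprx1 read 14.0, 22.8, 20.8 and 8.73 CPM (intermediate) in sham libraries and 8.03 (intermediate), 0, 0.389 and 0.721 CPM in SNT libraries. The intermediate libraries came close to each other here, but the groups did not overlap. The log2 fold change was -2.88 (SE 0.96, edgeR adjusted p = 0.0489), and without the 2 libraries -5.74 (SE 0.52, 18 SNT counts). Mrgprb5 was low throughout, at 0.912 to 2.74 CPM in sham and 0.723 to 2.23 CPM in SNT libraries (13 to 34 counts). Its change of -0.54 (interval -1.50 to 0.42) was not called, nor without the 2 libraries (-0.71). Reads shared between rat members of this family were not checked.

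The chains of the interleukin-31 receptor went opposite ways. Il31ra read 64.6, 86.7, 52.7 and 46.6 CPM (intermediate) in sham libraries and 30.9 (intermediate), 8.88, 6.39 and 19.3 CPM in SNT libraries. The groups did not overlap. The log2 fold change was -1.94 (SE 0.44, edgeR adjusted p = 0.0146), or 3.84-fold lower, and -2.57 (SE 0.36) without the 2 libraries. Osmr, which also serves the oncostatin M receptor and is carried by cells other than neurons, read 32.3, 36.5, 42.4 and 44.4 CPM (intermediate) in sham libraries and 43.6 (intermediate), 52.4, 54.3 and 52.6 CPM in SNT libraries. The intermediate sham lay above the intermediate SNT library, so the groups overlapped there. Osmr rose by 0.38 (SE 0.13, edgeR adjusted p = 0.0474), and the value without the 2 libraries was 0.52 (SE 0.12). Lpar3 read 9.40 to 14.4 CPM in sham and 8.85 to 13.0 CPM in SNT libraries, fully overlapping. Its log2 fold change of -0.09 (interval -0.51 to 0.33, edgeR adjusted p = 0.736) was not called, nor without the 2 libraries (-0.13).

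**Figure D4:**
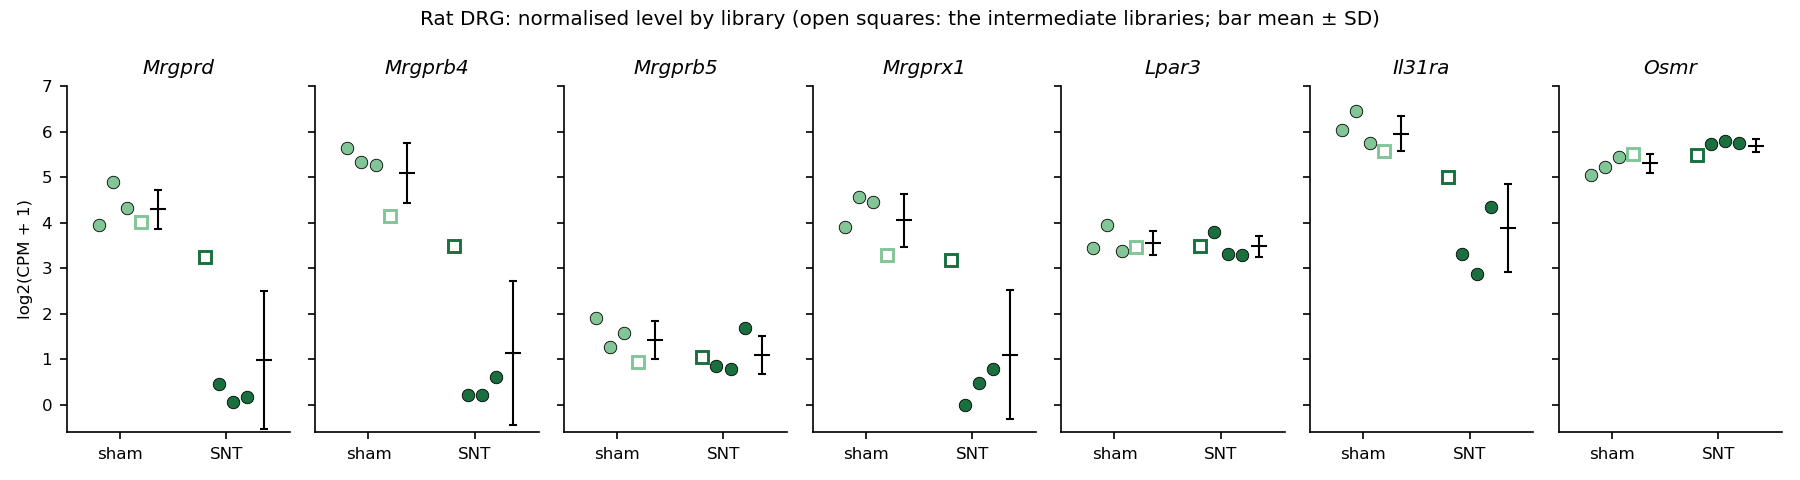
Level of the 7 tested receptors in each rat library as log2(CPM + 1), with the intermediate sham and SNT libraries as open squares and the mean and SD of each group beside the points. Mrgprd, Mrgprb4 and Mrgprx1 are at 0.721 CPM or less in 3 SNT libraries and at 8.03 to 10.3 CPM in the intermediate SNT library, while Lpar3 overlaps between groups.

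The rat calls rested on few libraries. Il31ra was the 1 member called in all 8 fits that each left out 1 library. Mrgprd, Mrgprb4, Mrgprx1 and Osmr were called without either intermediate library, and lost their call when any of the other 6 libraries was left out (adjusted p up to 0.102, 0.0640, 0.115 and 0.108). DESeq2 called 3 of the 6 it gave an adjusted p for (Mrgprb4, Il31ra and Osmr), and 4292 of 16415 features. It gave no adjusted p for Mrgprd, and Mrgprx1 had a DESeq2 adjusted p of 0.114.

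Other neuronal genes fell in the same rat libraries. Of 5 tested nonpeptidergic neuron genes 4 fell: Scn11a by 2.71 on the log2 scale, the phosphatase Acpp by 1.77, P2rx3 by 0.84 and Plxnc1 by 0.51. Of 6 tested pan-neuronal genes 4 fell, among them Avil by 1.42 and Isl1 by 1.09. Other neuron classes also held falls. Of 5 genes of low-threshold C fibres and cooling neurons 1 fell (Slc17a8, -3.025), and of 3 tested large-diameter genes 2 fell (Pvalb at -3.105). Of 5 tested peptidergic neuron genes 1 fell (Calcb, -1.74) and 1 rose (Adcyap1, 1.14). Without the 2 intermediate libraries Scn11a was at -4.41, Acpp at -2.34, P2rx3 at -1.10 and Plxnc1 at -0.52, and Avil at -2.03 and Isl1 at -1.55. Slc17a8 was then at -4.51, Pvalb at -4.94, Calcb at -2.79 and Adcyap1 at 1.735. Of 5 tested injury genes 5 rose, with or without those libraries. Of 2 other tested Mrgpr genes, Mrgprf rose by 1.398 (edgeR adjusted p = 0.0107; 1.65 without the 2 libraries). Of 12 other itch and lipid receptors 3 rose and 2 fell, with Htr1d at -2.41, Htr7 at -1.62 and Cysltr1, the other cysteinyl leukotriene receptor, at 1.36. Without the 2 libraries these were at -3.51, -2.19 and 2.04, and 5 of the 12 passed the threshold as higher and 4 as lower. Immune markers moved with SNT. Of the 4 genes listed as T cell markers 2 rose, Cd3e and Cd4 (4 of 4 without the 2 libraries). Cd3g and Cd8a were not called in the fit of all libraries. The 4 summed to 33.6 to 86.3 CPM in sham and 100 to 153 CPM in SNT libraries. Most of that sum was Cd4, at 32.3 to 74.1 CPM in sham and 94.5 to 141 CPM in SNT libraries. The sum is thus mainly the level of Cd4 and not a measure of T cells. Cd3e was at 0.143 to 0.782 CPM in sham and 1.39 to 2.06 CPM in SNT libraries. The 3 macrophage markers with counts summed to 56.9 to 155 CPM in sham and 145 to 222 CPM in SNT libraries, with Cd68, Aif1, Csf1r and Mrc1 listed at 0. Their part in the changes was not tested.

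Side by side, Mrgprx1 had a log2 fold change of -0.51 in BALB/c, -0.19 in B10.D2 and -2.88 in rat. For Mrgprd the values were -0.21, -0.09 and -3.12, for Mrgprb4 0.13, 0.20 and -3.69, and for Il31ra 0.10, 0.11 and -1.94. Osmr had 0.11, 0.13 and 0.38, and Lpar3 0.05, 0.14 and -0.09. Mouse and rat genes were matched by symbol alone, and whether they are counterparts was not checked. The experiments differed in species, nerve injury, ganglion level, day, pooling and RNA selection, so these differences cannot be told apart and no test was made between them.

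**Figure D5:**
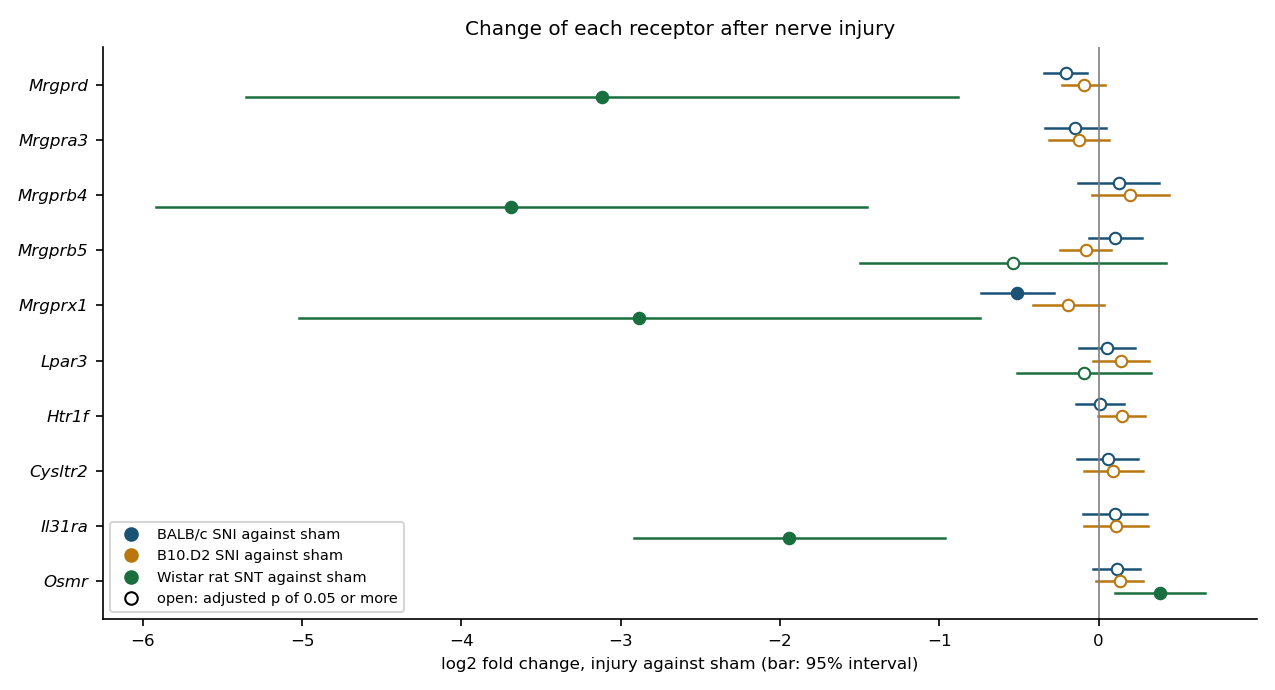
Log2 fold change of each receptor after injury against sham in BALB/c, B10.D2 and Wistar rat, with 95% intervals and filled points where the adjusted p was under 0.05. The rat values of Mrgprd, Mrgprb4 and Mrgprx1 lie between -3.69 and -2.88 with wide intervals, and all mouse values lie between -0.51 and 0.20.

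The receptors also varied among animals of the same group. After subtraction of group means, log2(CPM + 1) was compared over the 20 mouse libraries for the 45 pairs of the 10 genes. Pearson's r ran from -0.04 to 0.79 with a median of 0.32, as a description over libraries that share depth and dissection. It was highest for Mrgprd with Lpar3 (0.79), then Lpar3 with Cysltr2 (0.63) and Il31ra with Osmr (0.61). Among 12385 annotated genes of at least 5 CPM, those nearest to Mrgprd were Dip2c (0.90), Slc45a3 (0.90) and Eml1 (0.89). Nearest to Mrgpra3 were Nhs (0.85), Actl6b (0.81) and Elavl4 (0.81), and nearest to Il31ra were Pisd-ps1 (0.78), Xxylt1 (0.74) and Fdxacb1 (0.73).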

How the data were processed

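Ganglion RNA (ribodepleted in mouse, polyadenylated in rat) was sequenced as strand-marked paired reads of 100 bases. The authors mapped reads with STAR to mm10 and rn6, a single reference for both mouse strains, and deposited raw HTSeq counts per gene (intersection-nonempty mode), including LncRNAs assembled by the study. Whether strain variants altered mapping was not tested. The authors' own fold changes and p-values in the deposited result tables were not used, only their gene symbols. All sample columns were mapped to labels.

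Counts were scaled by TMM and fitted with edgeR 4.0.16 in R 4.3.3 (filterByExpr, quasi-likelihood F test, two-sided, Benjamini-Hochberg over all features tested, threshold 0.05). The mouse model was sex + strain * condition over 20 libraries, and the rat model was condition over 8. Intervals of 95% came from the same fit. CPM was the count scaled to the library total times its TMM factor. Exon lengths and positions were from GENCODE M21. Replicates were separate animals or pools, and 3-count floors cover counting error only. The fit was tested on simulated data.

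All 10 receptors are named. By rule, so are at most 4 genes of each context list, chosen by their change after injury or else by level, and the 3 genes nearest to Mrgprd, Mrgpra3 and Il31ra. Outside this rule Gfra1, Prkcq, Gfra2, Grik1, Snap25 and Uchl1 were named after their values were seen. The receptors and lists were chosen with earlier results of these data known. Alternatives were RLE size factors, no filter or at least 10 counts in every library, DESeq2 1.42.0 (the study's tool) and annotated genes alone. Further ones were each strain or sex alone, no sex term, leaving out libraries and, in rat, a block by the first number of the sample title.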

Additional observations from a re-analysis of the deposited data

Results flagged for a closer look

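In 7 of 54 groups of 4 to 6 libraries, the highest library of a receptor stood apart from the others by Dixon's criterion, which chance meets in about 1 of 20 groups. In rat, the intermediate SNT library stood above the other 3 SNT libraries for Mrgprd (8.47 CPM against 0.0556 to 0.381), Mrgprb4 (10.3 CPM against 0.163 to 0.524) and Mrgprx1 (8.03 CPM against 0 to 0.721). The same library lay nearest the sham group on the first principal component, and the part of that in these values was not tested. Lpar3 in 1 rat sham library stood at 14.4 CPM against 9.40 to 10.1 CPM in the other shams. In mouse, Mrgpra3 stood at 15.4 CPM (15.35) in B10.D2 sham 60 against 12.3 to 13.0 CPM, and Mrgprb5 at 32.6 CPM in B10.D2 sham 67 against 27.6 to 28.8 CPM. Il31ra stood at 49.3 CPM in BALB/c SNI 65 against 40.8 to 41.7 CPM.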

How the results depend on the processing

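The number of receptors called after SNI in BALB/c was 1, and became 2 (Mrgprd added) with RLE size factors, without a filter, with at least 10 counts in every library, under DESeq2 and with annotated genes alone, 0 in females alone, and 1 to 2 when 1 library was left out. In females alone Mrgprx1 had -0.40 (adjusted p = 0.142). After SNI in B10.D2 and for the interaction it was 0 under every setting and every left-out library. For the strains it was 5 under 6 other settings and 4 to 5 with 1 library left out. For sex it was 0, but 2 under DESeq2 and 0 to 1 with 1 library left out.

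In rat it was 5, but 3 under DESeq2, 2 with at least 10 counts in every library (4 receptors tested, Il31ra and Osmr called), and 1 to 5 with 1 library left out. Osmr had an adjusted p of 0.0530 without a filter and Mrgprx1 of 0.0502 with annotated genes alone. The causes were not tested. Each rat sample title opens with a number shared by 1 sham and 1 SNT library, and the labels do not say what it stands for. Libraries that shared it did not deviate together (r = 0.05, -0.23, -0.08 and -0.07). Not every library correlated best with the one of its own number, so no pairing was read from it. With this title number as a replicate block 4 receptors were called, and Mrgprx1 was at -3.95 (edgeR adjusted p = 0.0557).

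Uncalled values changed sign in SNI BALB/c for Mrgprb5 in males (-0.038), Lpar3 (-0.095), Cysltr2 (-0.062) and Il31ra (-0.023) in females, and Htr1f without a filter (-0.0026) and in males (-0.017), and in SNI B10.D2 for Mrgprx1 in males (0.015). With 1 library left out, Htr1f in SNI BALB/c ran from -0.028 to 0.065, Lpar3 in rat from -0.22 to 0.090 and Lpar3 between strains from -0.044 to 0.071. Without the 2 intermediate libraries, 10, 14 and 18 SNT counts were left in rat for Mrgprd, Mrgprb4 and Mrgprx1. The size of these losses is then limited by depth, while Il31ra kept 572 counts.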
